A study of Mus musculus with 12 samples.

Results

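The 10 genes described here encode proteases of the lysosome, 9 cathepsins (Ctsa, Ctsb, Ctsc, Ctsd, Ctsh, Ctsk, Ctsl, Ctss and Ctsz) and the asparaginyl endopeptidase legumain (Lgmn). They were taken by symbol from a table of read counts for 23479 gene symbols in 12 mouse prostate tumours. All 10 were in the table, and 10 of 10 were among the 15082 genes that passed the filter on low counts. Together they held between 0.195% (IgG replicate 3) and 0.416% (Lupron replicate 1) of a tumour's counts.

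Lysosomal proteases are made as inactive precursors, carried to the acidic lysosome by sorting receptors, and activated there by removal of a propeptide. Ctsb, Ctsk, Ctsl and Ctss are papain-type cysteine endopeptidases. Ctsc, Ctsh and Ctsz belong to the same fold but trim protein ends, Ctsc and Ctsh from the amino end and Ctsz from the carboxyl end. Ctsd is an aspartic endopeptidase, Ctsa is a serine carboxypeptidase that also protects other lysosomal enzymes, and Lgmn cuts after asparagine and helps to mature other cathepsins. Most nucleated cells hold Ctsa, Ctsb, Ctsd and Ctsl, whereas Ctss is typical of macrophages, dendritic cells and B cells, where it cuts the invariant chain of MHC class II, and Ctsk is best known from osteoclasts. In tumours, cathepsins of macrophages and of tumour cells are known for cutting extracellular matrix.

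The tumours were grown in C57BL/6J mice by orthotopic injection into the prostate of 100000 cells of PTE-82, a prostate cancer line whose tumours are labelled as positive for TMPRSS2-ERG. In the Lupron/anti-CSF1 group mice received Lupron (leuprolide, which shuts down testicular testosterone) at 0.6 mg per mouse on day 4 and an antibody against CSF1, the growth factor that macrophages need, on days 9 and 14. The anti-CSF1 group received the antibody on the same days, the Lupron group received Lupron on day 4, and the IgG group is labelled with control IgG. Each group had 3 tumours, taken on day 17 after perfusion with PBS. The sources used here do not say if control IgG was also given to the Lupron group. All 4 groups share the injected line, so it is a model of 1 line in immune-competent hosts. Replicates are labelled as separate tumours, and p-values measure the spread between these 12 samples.

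Total counts ran from 20584363 to 29965355 per library, and RNA integrity numbers from 8.2 to 9.8. The epithelial keratins Krt8 and Krt18 were present in every library, Krt8 from 26.0 to 286 CPM (counts scaled to a library size that is corrected with TMM factors). 2 libraries stood apart. IgG replicate 3 had the highest mean level of the 6 luminal epithelium markers (8.04 on the log2(CPM + 1) scale, against 3.75 to 6.99 in the other libraries) and of the 6 smooth muscle markers (10.4, against 4.43 to 8.51), and the lowest of the 6 proliferation markers (3.81, against 6.80 to 7.73). IgG replicate 3 was also highest in the 5 fat markers (7.17, against 0.863 to 4.42) and the 3 tested markers of normal prostate secretion (11.3, against 2.365 to 7.717). Lupron replicate 2 had 28.4% of its counts in 6 seminal vesicle genes. Results that rest on IgG replicate 3 are given with and without it.

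Levels were first set per kilobase of the longest coding transcript. On that scale Ctsl was the most abundant of the 10 in the 6 tumours with anti-CSF1, at 403 ± 115 CPM per kb (SD, n = 6). In the 6 tumours without it Ctss was, at 360 ± 159 CPM per kb. With the antibody, Ctsl was followed by Ctsb (209 ± 30.3 CPM per kb), Ctsz (132 ± 21.0), Ctsc (112 ± 12.3), Ctss (90.8 ± 26.1), Ctsd (84.6 ± 6.51), Lgmn (61.0 ± 6.96), Ctsh (58.4 ± 11.8), Ctsa (56.6 ± 6.03) and Ctsk (1.54 ± 0.714). The means of neighbours in that order differed by less than the larger of their SDs from Ctsz to Ctsd and from Lgmn to Ctsa, and by more between Ctsl and Ctsb, Ctsb and Ctsz, Ctsd and Lgmn, and Ctsa and Ctsk. Without the antibody the order was Ctss, Ctsl (244 ± 58.0 CPM per kb), Ctsz (173 ± 71.4), Ctsb (146 ± 42.3), Lgmn (140 ± 48.5), Ctsh (138 ± 35.6), Ctsd (119 ± 66.0), Ctsc (113 ± 42.2), Ctsa (59.0 ± 13.5) and Ctsk (2.76 ± 1.21). From Ctss to Ctsc the means of neighbours differed by less than the larger of their SDs. Ctsk, the osteoclast protease, was the lowest of the 10 in each arm. The order depends on the length used. Per kilobase of all annotated exons, Ctsl stood at 122 and 123 CPM per kb in the Lupron/anti-CSF1 and anti-CSF1 groups. That is below Ctsb (164 and 163) and Ctsz (126 and 138). In the Lupron and IgG groups Ctss still led, at 451 and 268, and Ctsl stood at 83.6 and 64.7, below Ctsz, Lgmn and Ctsb.

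**Figure D1:**
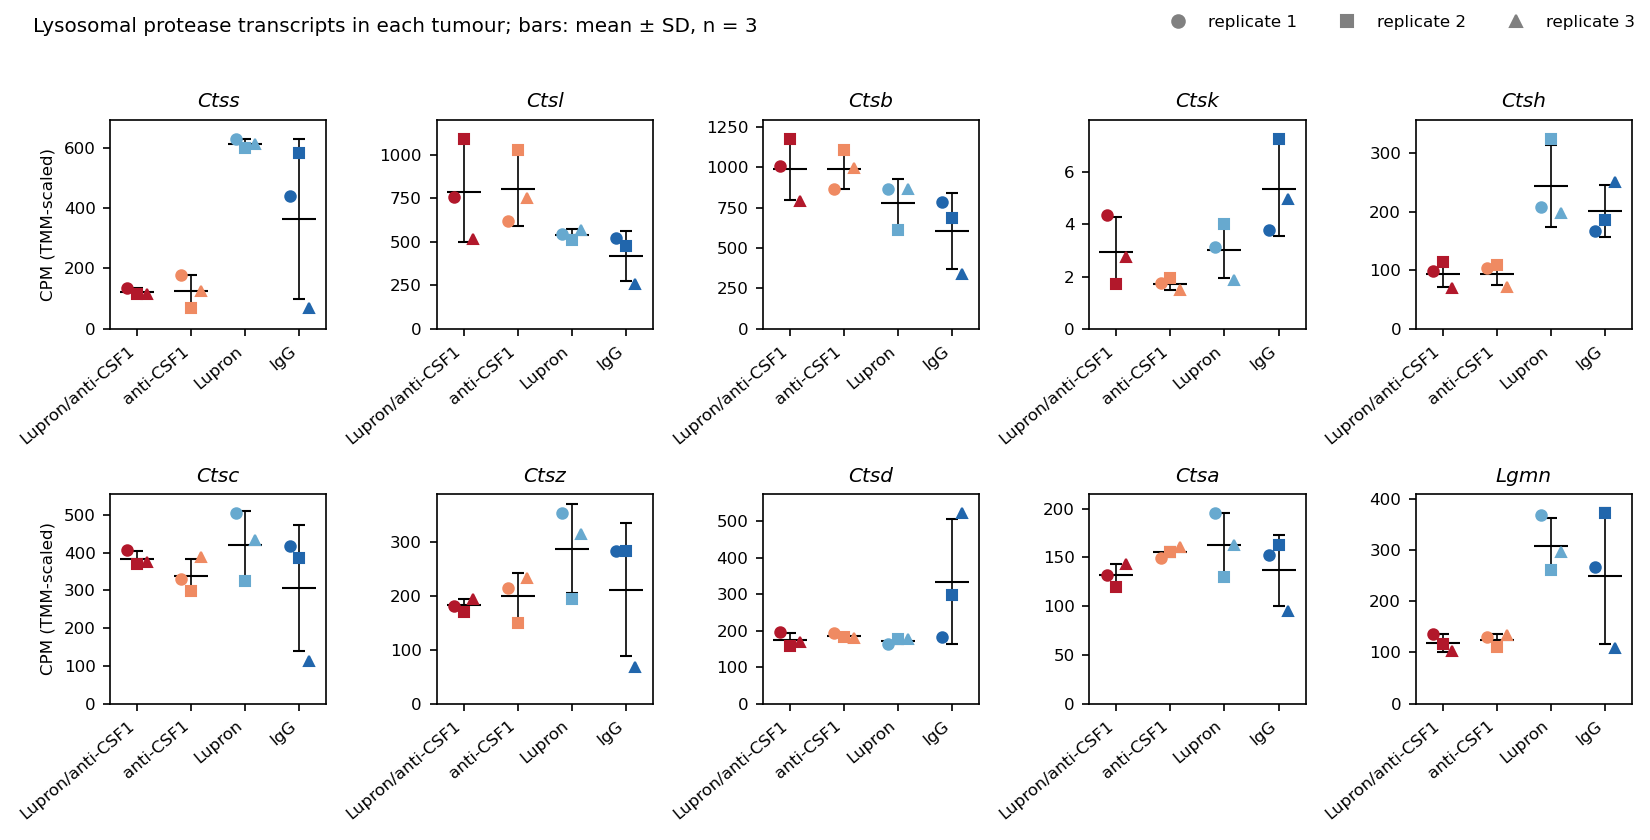
CPM of each of the 10 protease genes (y axis, from 0, a scale of its own for each gene) in the 4 groups (x axis). Each point is a tumour, its shape the replicate number, and the bars are the group mean ± SD (n = 3). Ctss stood at 597 to 629 CPM in the 3 Lupron tumours and at 70.8 CPM in IgG replicate 3, while Ctsd was highest there at 522 CPM.

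The question of what the antibody did was asked first over all tumours, as the change with anti-CSF1 averaged over Lupron (6 tumours with the antibody against 6 without). Ctss, Ctsh and Lgmn fell, by factors of 3.84, 2.34 and 2.28. That is 3 of 10 members lower and 0 of 10 higher, where 270 of all 15082 genes (1.79%) were called lower and 12 (0.0796%) higher. The other 7 did not pass, 4 of them with negative and 3 with positive estimates. The median log2 fold change of the 10 was −0.40, and that of all tested genes 0.02. Without IgG replicate 3, Ctss, Ctsh and Lgmn were again the 3 members called, where 476 of 15196 genes (3.13%) were. A gene counts as called where edgeR's quasi-likelihood test gave it a p under 0.05 after Benjamini-Hochberg adjustment over all genes.

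Ctss, the cysteine endopeptidase of antigen-presenting cells, stood at 137, 115 and 114 CPM in the Lupron/anti-CSF1 tumours and at 179, 70.1 and 124 CPM in the anti-CSF1 tumours. It stood at 629, 597 and 612 CPM in the Lupron tumours and at 439, 581 and 70.8 CPM in the IgG tumours. All tumours with the antibody were below 5 of the 6 without it, and IgG replicate 3 lay among the treated ones. The log2 fold change was −1.94 ± 0.42 (SE, adjusted p = 0.0419), and −2.18 ± 0.22 without IgG replicate 3 (adjusted p = 0.000204). When each library was left out in turn, Ctss was called without IgG replicate 1 and without IgG replicate 3 (2 of 12 fits, where 10.1% and 3.13% of all genes were called), and its adjusted p reached 0.137 in the others. The estimates stayed between −2.18 and −1.68.

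Ctsh, an aminopeptidase, was the member whose arms did not overlap. It stood at 98.1, 114 and 70.6 CPM in the Lupron/anti-CSF1 tumours and at 104, 109 and 71.1 CPM in the anti-CSF1 tumours, against 209, 325 and 198 CPM in the Lupron tumours and 167, 186 and 251 CPM in the IgG tumours. Such a gap with lower values under the antibody was found for 255 of the 15082 genes (1.69%). The log2 fold change was −1.23 ± 0.20 (adjusted p = 0.0130), and −1.13 ± 0.19 without IgG replicate 3 (adjusted p = 0.00556). Over the same 12 fits Ctsh was called in 11, and had an adjusted p of 0.0523 without anti-CSF1 replicate 3. Its highest values, in Lupron replicate 2 and IgG replicate 3, were in the 2 libraries that stood apart, and the part of the non-tumour markers in them was not tested.

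Lgmn, the asparaginyl endopeptidase, stood at 137, 117 and 102 CPM in the Lupron/anti-CSF1 tumours and at 129, 110 and 134 CPM in the anti-CSF1 tumours. It stood at 368, 260 and 296 CPM in the Lupron tumours and at 267, 372 and 108 CPM in the IgG tumours. As for Ctss, IgG replicate 3 alone overlapped with the treated tumours. The log2 fold change was −1.19 ± 0.26 (adjusted p = 0.0419), and −1.37 ± 0.16 without IgG replicate 3 (adjusted p = 0.000426). The call held in 2 of 12 such fits, again those without IgG replicate 1 or IgG replicate 3, with adjusted p up to 0.136 in the others. With the replicate number as a block, neither Lgmn (adjusted p = 0.0822) nor Ctss (0.103) passed. In that fit 1 of 10 members was called, where 151 of 15082 genes (1%) were.

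The endopeptidases Ctsl and Ctsb had the highest estimates of the 10, and neither passed. Ctsl stood at 755, 1093 and 518 CPM in the Lupron/anti-CSF1 tumours and at 619, 1029 and 755 CPM in the anti-CSF1 tumours, against 546, 512 and 569 CPM in the Lupron tumours and 525, 479 and 256 CPM in the IgG tumours. Its log2 fold change was 0.74 ± 0.24 (adjusted p = 0.155). Ctsb stood at 1008, 1177 and 792 CPM in the Lupron/anti-CSF1 tumours and at 865, 1105 and 996 CPM in the anti-CSF1 tumours, against 866, 611 and 867 CPM in the Lupron tumours and 788, 686 and 338 CPM in the IgG tumours. Its log2 fold change was 0.53 ± 0.23 (adjusted p = 0.239). For both genes the arms overlapped, and IgG replicate 3 was the lowest tumour. DESeq2 called Ctsl higher (0.72, adjusted p = 0.0308), among 1425 genes (9.45%) that it called in either direction.

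The remaining 5 members were not called. Ctsk, which degrades collagen, had a lowest, median and highest level of 1.49, 1.84 and 4.34 CPM with the antibody and of 1.88, 3.89 and 7.26 CPM without it (−0.83 ± 0.33, adjusted p = 0.208). Ctsd, the aspartic endopeptidase, lay between 159 and 196 CPM with the antibody and between 163 and 522 CPM without it (−0.42 ± 0.22, adjusted p = 0.310). The spread of Ctsd without the antibody came from IgG replicates 2 and 3, at 299 and 522 CPM. The carboxypeptidase Ctsz lay between 150 and 234 CPM with the antibody and between 68.6 and 353 CPM without it (−0.37 ± 0.31, adjusted p = 0.510). Ctsz was called, at −0.69 (adjusted p = 0.0315, where 2.51% of genes were called), once IgG replicate 3 and Lupron replicate 2 were both left out, a choice made after the data were seen. Ctsc, the dipeptidyl peptidase that activates granzymes and neutrophil proteases, lay between 299 and 406 CPM with the antibody and between 114 and 504 CPM without it (0.01 ± 0.28, adjusted p = 0.989). Ctsa, the carboxypeptidase, lay between 120 and 161 CPM with the antibody and between 94.6 and 195 CPM without it (−0.06 ± 0.16, adjusted p = 0.853). The lowest level of Ctsc, Ctsz and Ctsa was in IgG replicate 3.

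**Figure D2:**
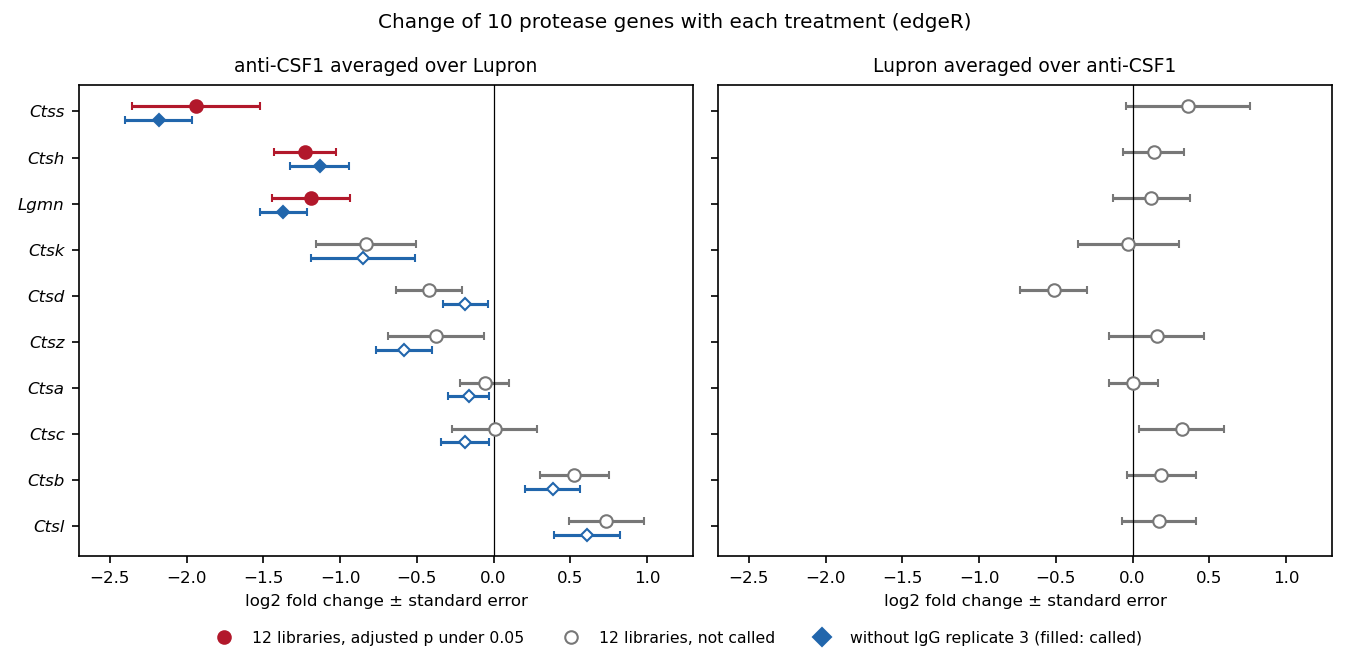
Log2 fold change ± SE (x axis) of the 10 genes (y axis) for anti-CSF1 averaged over Lupron (left) and Lupron averaged over anti-CSF1 (right), from edgeR. Filled red circles are called at an adjusted p under 0.05, open circles are not, and blue diamonds are the left-hand fit without IgG replicate 3. Ctss, Ctsh and Lgmn are the called genes on the left, and none is called on the right.

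By class, 1 of 4 cysteine endopeptidases (Ctss), 1 of 3 cysteine exopeptidases (Ctsh) and 1 of the 3 aspartic, serine and asparaginyl proteases (Lgmn) was called lower. The ratio of Ctss to Ctsl counts, chosen after the values were seen and not tested, ran from 0.0682 to 0.289 with a median of 0.173 in the 6 tumours with the antibody. Without the antibody it ran from 0.276 to 1.21 with a median of 1.11, and its lowest value was in IgG replicate 3.

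Markers of macrophages moved in the same comparison. All 13 macrophage markers had negative estimates, 10 of 13 were called lower, and the median log2 fold change was −2.31. Csf1r, the receptor of the antibody's target, stood at 24.0, 15.1 and 19.8 CPM in the Lupron/anti-CSF1 tumours and at 27.1, 10.9 and 25.3 CPM in the anti-CSF1 tumours, against 139, 80.5 and 106 CPM in the Lupron tumours and 113, 148 and 51.9 CPM in the IgG tumours. The arms did not overlap, and the log2 fold change was −2.38 ± 0.31 (adjusted p = 0.00798). Across tumours, the mean level of the 13 markers ran from 3.44 to 4.06 on the log2(CPM + 1) scale with the antibody and from 4.53 to 6.17 without it, with IgG replicate 3 as the lowest tumour without the antibody. Some other marker lists also had lower estimates with the antibody. All 6 smooth muscle markers were negative (median −2.31), as were all 6 luminal epithelium markers (−1.42), all 5 fat markers (−4.66), all 6 dendritic cell markers (−0.62) and all 4 B cell markers (−0.84), with 0 called in each of these lists. Of 5 monocyte markers 3 were negative and 2 positive, and 1 was called lower (median −1.30). Further lists went the other way with 0 called. Positive were 6 of 8 fibroblast markers (median 0.535), 6 of 6 proliferation markers (0.382), 4 of 5 endothelial markers (0.388) and 3 of 5 neutrophil markers (0.0751). The T and NK cell list had 4 estimates of each sign, with 1 called lower. Without IgG replicate 3 the medians were −1.50 for smooth muscle, −0.94 for luminal epithelium, −3.06 for fat, −0.78 for dendritic cells and −0.62 for B cells, again with 0 called, and 2 monocyte markers were called. The part of these cell types in the lower Ctss, Ctsh and Lgmn was not tested. In bulk RNA, fewer macrophages and less of a transcript per cell cannot be told apart.

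To compare each protease with the macrophage genes directly, the mean of the 13 markers in a tumour was subtracted from the level of each gene on the log2(CPM + 1) scale, and limma tested the change of that difference. The marker mean itself fell by 1.79 with the antibody. For Ctss the difference was 0.04 (95% interval −0.60 to 0.67, adjusted p = 0.910), which leaves room for a gap of either sign. The difference for Ctsh was 0.57 (−0.13 to 1.27, adjusted p = 0.114), and without IgG replicate 3 it was 0.87 (adjusted p = 0.00229). Lgmn fell less than the markers, with a difference of 0.69 (0.15 to 1.23, adjusted p = 0.0175).

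The other 7 members all stood higher relative to the markers, from Ctsk at 1.17 (0.38 to 1.96, adjusted p = 0.00657) over Ctsd at 1.43, Ctsz at 1.55, Ctsa at 1.76, Ctsc at 1.91 and Ctsb at 2.35 to Ctsl at 2.51 (1.87 to 3.15, adjusted p = 2.96e-06). That makes 8 of 10 members, where 13498 of 15069 genes (89.6%) were called, 13497 of them higher. All genes share the same subtracted mean, so a gene without any change in CPM also stands about 1.79 higher on this scale. The intervals of Ctsk, Ctsd, Ctsz, Ctsa, Ctsc and Ctsb hold that value, those of Ctss, Ctsh and Lgmn lie below it, and that of Ctsl lies above it. The value 1.79 is itself an estimate, and the intervals carry the spread of the marker mean. Their place beside it is therefore no test of a change in CPM. In edgeR's test of that change, Ctsl was not called (adjusted p = 0.155).

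**Figure D3:**
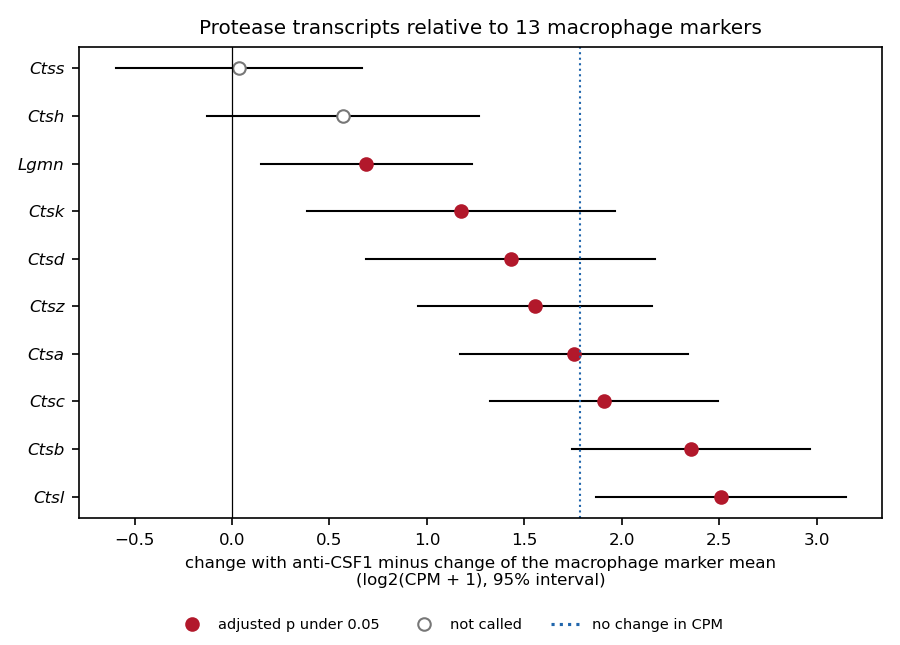
Change with anti-CSF1 of each protease gene minus the change of the mean of 13 macrophage markers (x axis, log2(CPM + 1) units) with its 95% interval, for the 10 genes (y axis). Filled circles are called at an adjusted p under 0.05, and the dotted line marks 1.79, where a gene with no change in CPM would stand. The interval of Ctss spans 0, and Ctsl lies at 2.51.

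The pattern of a member over the 12 tumours was compared with that of every other tested gene by the root mean square difference of centred log2(CPM + 1) values. Nearest to Ctss were Gpr65 (0.251) and Mpeg1 (0.266), a pore-forming protein known from macrophages, where Ctss itself varied with an SD of 1.27. Nearest to Lgmn were Ncf4 (0.145), a subunit of the phagocyte NADPH oxidase, and Sash3 (0.164), and nearest to Ctsh were Pkib (0.179) and Naip5 (0.247). The neighbours of Ctsl were Pthlh (0.146) and Wls (0.159), those of Ctsb were Nudcd1 (0.117) and Nubp2 (0.126), and those of Ctsd were Adipor2 (0.0722) and Gorasp1 (0.129). Fes was near both Ctsc (0.119, after Pmf1 at 0.118) and Ctsz (0.219, before Dck at 0.221). Ctsa lay nearest to Rbck1 (0.105) and Gcat (0.113), and Ctsk to Sbspon (0.279) and Cr2 (0.290). Among the members, Ctsb and Ctsl were the most alike (0.182), Ctsc and Ctsz next (0.239), and Ctsl and Ctss the least (1.43).

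**Figure D4:**
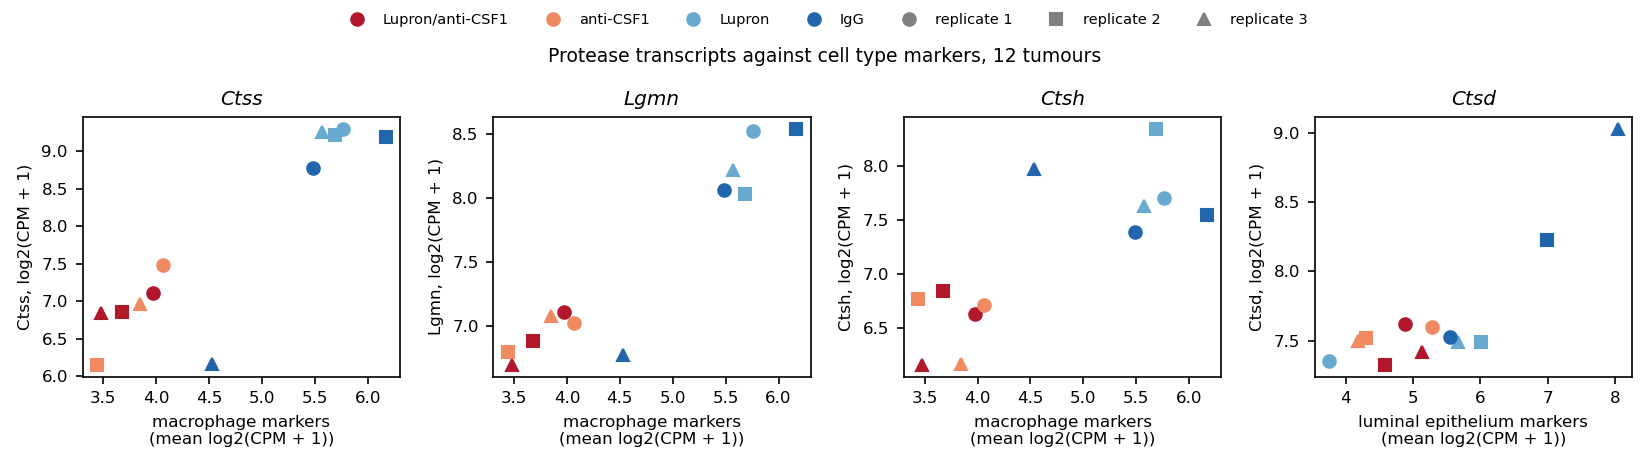
Level of Ctss, Lgmn and Ctsh (y axes, log2(CPM + 1)) against the mean of 13 macrophage markers, and of Ctsd against the mean of 6 luminal epithelium markers (x axes, mean log2(CPM + 1)), in 12 tumours. Colours are groups and shapes replicate numbers. IgG replicate 3 lies at 4.53 on the macrophage axis with a Ctss level like that of treated tumours, and at 8.04 on the luminal axis with the highest Ctsd level. That tumour was also the highest in smooth muscle and fat markers, which are not drawn.

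Genes that work with these proteases were looked at in the same comparison. Of 85 other lysosomal genes and cathepsin inhibitors in 6 lists, 80 were tested, 5 were called lower and 0 higher, 41 estimates were negative and 39 positive, and the median was −0.01. Among those called lower were Gm2a, the activator protein for GM2 ganglioside breakdown (−1.16 ± 0.19, adjusted p = 0.0136), Slc11a1, a metal transporter of macrophage phagosomes (−2.36 ± 0.41, adjusted p = 0.0170), Cln8 (−0.71 ± 0.15, adjusted p = 0.0364) and Tfec (−1.85 ± 0.39, adjusted p = 0.0400), a transcription factor of the Tfeb family. With each library left out in turn, Gm2a was called in 11 and Slc11a1 in 8 of 12 fits, and Cln8 and Tfec in 2 each.

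Of the 10 other lysosomal proteases, 0 were called, and their median was 0.08. Ctsf, another cysteine cathepsin, stood at −1.92 ± 0.55 (adjusted p = 0.112). Of 11 cathepsin inhibitors 7 were tested and 0 called, with a median of 0.73, and cystatin C (Cst3), a secreted inhibitor of cysteine cathepsins, stood at −0.54 ± 0.19 (adjusted p = 0.171). Among 28 tested hydrolases 2 fell (median −0.12), among 19 membrane and proton pump genes 1 fell (median 0.05), and among 12 sorting genes 1 fell (median −0.11). Of the 4 lysosomal transcription factors, Tfec fell, and Tfeb stood at −0.58 (adjusted p = 0.251).

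Genes of MHC class II processing, where Ctss acts, fell in 7 of 8 cases, with 8 of 8 negative estimates and a median of −2.18. Cd74, the invariant chain that Ctss cuts, was singled out after its values were seen. It stood at 176, 186 and 308 CPM in the Lupron/anti-CSF1 tumours and at 460, 110 and 249 CPM in the anti-CSF1 tumours, against 1650, 1177 and 1678 CPM in the Lupron tumours and 1170, 1044 and 467 CPM in the IgG tumours. Cd74 fell by 2.23 ± 0.36 on the log2 scale (adjusted p = 0.0130). H2-DMb1 (−2.52 ± 0.27, adjusted p = 0.00530) and H2-DMa (−1.89 ± 0.25, adjusted p = 0.00798), the subunits of the molecule that loads peptides, also fell, as did H2-Ab1 (adjusted p = 0.0086) and H2-Aa (adjusted p = 0.00931), the chains that present them. For Ctsk, the osteoclast list gave 1 of 5 tested markers called lower (3 of 5 without IgG replicate 3). It was Acp5 (−1.21 ± 0.19, adjusted p = 0.0118), an acid phosphatase that macrophages also make. The list did not move 1 way: 3 estimates were negative and 2 positive. All 5 had an unadjusted edgeR p under 0.05, as did 19% of all genes. Of 8 fibroblast markers 0 were called.

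With the antibody given alone (anti-CSF1 against IgG), 0 of 10 members passed in edgeR, as did 1 of 15082 genes (0.00663%). At an unadjusted p under 0.05 there were 7 of 10 members, where all genes had 3446 (22.8%). Estimates were −1.55 ± 0.58 for Ctss (adjusted p = 0.157), −1.09 ± 0.28 for Ctsh (0.0907), −1.002 ± 0.36 for Lgmn (0.144) and −1.63 ± 0.47 for Ctsk (0.0977). Ctsh and Ctsk did not overlap between the groups and were lower, and Ctsb (0.71 ± 0.32) and Ctsl (0.93 ± 0.34) did not overlap and were higher, where 12.8% and 11.1% of genes did the same in each direction. DESeq2 called 4 members lower (Ctsk, Ctss, Ctsh and Lgmn) among 1841 genes (12.2%). Without IgG replicate 3, edgeR called Ctss (−2.04, adjusted p = 0.0109) and Lgmn (−1.36, adjusted p = 0.0167) among 168 genes (1.11%). Without IgG replicate 1 it called Ctsk (−1.82, adjusted p = 0.0342), Ctsh (−1.21, adjusted p = 0.0280) and Ctsd (−1.15, adjusted p = 0.0163), 3 of 10 members where 2611 of 15568 genes (16.8%) were called. Over the 12 fits that leave out 1 library, the estimate of Ctsd ran from −1.15 to −0.38.

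With the antibody added to Lupron (Lupron/anti-CSF1 against Lupron), Ctss stood 5.03-fold lower, Lgmn 2.60-fold and Ctsh 2.58-fold lower, and 0 of 10 members and 0 of 15082 genes (0%) passed in edgeR. At an unadjusted p under 0.05 there were 3 of 10 members, where all genes had 642 (4.26%). The log2 fold changes were −2.33 ± 0.60 for Ctss (adjusted p = 0.238), −1.38 ± 0.36 for Lgmn (0.257) and −1.37 ± 0.28 for Ctsh (0.117). With Ctsz (−0.66 ± 0.44), these were the 4 members whose groups did not overlap, all lower, where 6.93% of genes did so. DESeq2 called Ctss, Ctsh and Lgmn among 236 genes (1.56%), and so did edgeR without IgG replicate 3 (adjusted p = 0.00305, 0.0233 and 0.00672, among 210 genes or 1.38%), a tumour of neither group that enters through the shared estimate of spread. Fitted to these 2 groups alone, edgeR called Ctss (adjusted p = 0.00185) and Lgmn (0.0170) among 204 of 14291 genes (1.43%).

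Lupron was asked about first as the change with Lupron averaged over anti-CSF1 (6 tumours with Lupron against 6 without). In edgeR 0 of 10 members passed, as did 0 of 15082 genes (0%), 1 member and 1366 genes (9.06%) had an unadjusted p under 0.05, and DESeq2 called 0 members and 12 genes (0.0796%). The member was Ctsd, whose lowest, median and highest levels were 159, 174 and 196 CPM with Lupron and 179, 188 and 522 CPM without it (−0.51 ± 0.22, adjusted p = 0.525). With each library left out in turn, its estimate ran from −0.66 to −0.28. The arms overlapped, and the top values were those of IgG replicates 2 and 3. These tumours also had the highest luminal marker levels, at 6.99 and 8.04. Luminal markers were not alone in this. The same tumours were highest in smooth muscle markers (8.51 and 10.45) and fat markers (4.42 and 7.17). The part of luminal, smooth muscle or fat cells in the Ctsd levels was not tested. The other 9 estimates ran from −0.03 (Ctsk) to 0.36 (Ctss), and the median of the 10 was 0.15.

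In Lupron against IgG, 0 of 10 members and 0 of 15082 genes (0%) passed in edgeR, 1 member and 2478 genes (16.4%) had an unadjusted p under 0.05, and DESeq2 called 0 members and 404 genes (2.68%). Ctsd stood at 163, 178 and 178 CPM in the Lupron tumours and at 183, 299 and 522 CPM in the IgG tumours. The groups did not overlap, as for 8.53% of genes in that direction, and the log2 fold change was −0.95 ± 0.31 (adjusted p = 0.284). Without IgG replicate 1, which leaves the 2 IgG tumours highest in luminal, smooth muscle and fat markers, Ctsd was called (−1.25, adjusted p = 0.0372) among 653 genes (4.19%). Over the 12 fits that leave out 1 library, its estimate ran from −1.25 to −0.48, and it was called in 1 of them. Ctss, at 0.75 ± 0.57 (adjusted p = 0.484), was the member that was higher without overlap, as were 11.1% of genes.

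The combination was also set against IgG and against the antibody alone. The comparisons with IgG share the IgG tumours, so their values are not independent. In Lupron/anti-CSF1 against IgG, 0 of 10 members and 1 of 15082 genes (0.00663%) passed in edgeR, 6 members and 3922 genes (26%) had an unadjusted p under 0.05, and DESeq2 called Ctss, Ctsh, Ctsd and Lgmn among 2094 genes (13.9%). The log2 fold changes were −1.58 ± 0.58 for Ctss, −1.09 ± 0.28 for Ctsh, −1.07 ± 0.36 for Lgmn and −0.94 ± 0.31 for Ctsd. Their adjusted p ran from 0.115 to 0.139. The remaining members with an unadjusted p under 0.05, Ctsl and Ctsb, had positive estimates. Ctsl stood at 0.91 ± 0.34 (adjusted p = 0.144) and Ctsb at 0.72 ± 0.32 (adjusted p = 0.187). The groups overlapped for Ctsl, and for Ctsb they did not. With each library left out in turn, the Ctsd estimate ran from −1.23 to −0.46. In Lupron/anti-CSF1 against anti-CSF1, 0 of 10 members and 0 of 15082 genes (0%) passed in edgeR, 0 members and 294 genes (1.95%) had an unadjusted p under 0.05, and DESeq2 called 0 members and 6 genes (0.0398%). The estimates lay between −0.24 ± 0.23 (Ctsa) and 0.77 ± 0.46 (Ctsk), and that of Ctss was −0.03 ± 0.57.

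Whether the antibody's change differed with Lupron was tested as an interaction, where 0 of 10 members and 0 of 15082 genes (0%) passed in edgeR, 1 member and 1021 genes (6.77%) had an unadjusted p under 0.05, and DESeq2 called 0 members and 188 genes (1.25%). Ctsk had the lowest p, with a difference of 1.59 ± 0.65 on the log2 scale (adjusted p = 0.677). Its level was 4.34, 1.71 and 2.75 CPM in the Lupron/anti-CSF1 tumours, 1.73, 1.94 and 1.49 CPM in the anti-CSF1 tumours, 3.14, 4.02 and 1.88 CPM in the Lupron tumours and 3.77, 7.26 and 4.95 CPM in the IgG tumours. The anti-CSF1 tumours were low and close together, and the IgG tumours high. The interaction of Ctss was −0.78 ± 0.81 (adjusted p = 0.857) and that of Ctsd 0.87 ± 0.43 (adjusted p = 0.764).

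The genes lie on 7 chromosomes in the mouse genome (build GRCm38), and Ctsk (chromosome 3, 95499256 to 95509362) and Ctss (chromosome 3, 95526786 to 95556403) are neighbours on the plus strand, 17423 bases apart with 0 annotated genes between them. Ctss averaged 123 ± 35.3 CPM with the antibody and 488 ± 216 CPM without it, and Ctsk 2.33 ± 1.08 CPM with it and 4.17 ± 1.83 CPM without it (SD, n = 6 each). The difference between the changes of these neighbours was not tested. Ctsh lies on chromosome 9 (90054152 to 90076089, plus strand) and Lgmn on chromosome 12 (102394084 to 102439813, minus strand). Parts of Ctsa (with Neurl2 and Pltp), Ctsb (with Fdft1) and Ctsz (with Nelfcd, by 10 bases) overlap counted genes on the opposite strand, and without a known strand setting their reads there cannot be told apart.

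Promoters were read from RefSeq (GRCm38.p6, 250 bases before to 50 after a start), which gave 10 promoters for 8 of the 10 genes, with none for Ctsb and Ctsh. They are shown for Ctss and Lgmn, which fell, and for Ctsl and Ctsd, which did not pass, because Lgmn, Ctsl and Ctsd hold an E-box, the motif class that Tfeb, a known regulator of lysosomal genes, binds. Capitals mark the E-box core CACGTG and its extended form TCACGTG. They also mark the ETS core GGAAGT, the motif class of ERG and of the macrophage factor PU.1, which in Ctss is read from the other strand. Both strands were searched for each.
Ctss promoter, chr3:95526536-95526835, plus strand: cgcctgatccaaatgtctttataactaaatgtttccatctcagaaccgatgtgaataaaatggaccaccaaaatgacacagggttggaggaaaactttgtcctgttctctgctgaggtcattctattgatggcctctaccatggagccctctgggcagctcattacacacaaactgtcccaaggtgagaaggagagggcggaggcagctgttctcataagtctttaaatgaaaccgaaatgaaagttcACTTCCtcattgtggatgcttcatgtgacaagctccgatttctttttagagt
Lgmn promoter, chr12:102439043-102439342, minus strand: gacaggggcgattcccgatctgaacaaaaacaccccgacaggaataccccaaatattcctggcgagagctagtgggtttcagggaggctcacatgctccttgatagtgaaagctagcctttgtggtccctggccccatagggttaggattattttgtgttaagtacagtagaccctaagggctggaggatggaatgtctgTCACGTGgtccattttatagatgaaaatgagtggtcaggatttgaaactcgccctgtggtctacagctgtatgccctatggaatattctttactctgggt
Ctsl promoter, chr13:64370471-64370770, minus strand: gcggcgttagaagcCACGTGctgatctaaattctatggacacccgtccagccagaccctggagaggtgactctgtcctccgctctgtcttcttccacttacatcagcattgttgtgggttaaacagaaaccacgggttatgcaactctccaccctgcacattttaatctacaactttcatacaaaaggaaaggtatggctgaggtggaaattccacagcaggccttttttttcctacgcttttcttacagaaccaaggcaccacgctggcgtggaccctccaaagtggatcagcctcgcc
Ctsd promoter, chr7:142387778-142388077, minus strand: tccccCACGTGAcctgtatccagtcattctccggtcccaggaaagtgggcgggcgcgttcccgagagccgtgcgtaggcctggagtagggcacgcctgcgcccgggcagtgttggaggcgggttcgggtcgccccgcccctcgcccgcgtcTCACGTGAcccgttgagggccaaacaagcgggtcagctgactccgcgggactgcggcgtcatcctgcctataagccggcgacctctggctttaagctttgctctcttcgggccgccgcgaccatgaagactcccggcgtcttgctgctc
The E-box core lies 49 bases before the start in this Lgmn promoter, 236 bases before it in Ctsl, and 245 and 98 bases before it in Ctsd, counted to its first base. The second Lgmn promoter holds none. The core was in 4 of 10 protease promoters (of Ctsa, Ctsd, Ctsl and Lgmn), against 7.15% of 32851 promoters in the table, and the extended form, which contains the core, in 3 of 10 (Ctsa, Ctsd and Lgmn), against 3.77%. The ETS core was in 4 of 10 (Ctsa, Ctsc, Ctsk and Ctss), against 23.8%, and in Ctss it starts 2 bases before the start site. Of the 4 genes with an E-box, Lgmn fell with the antibody, and Ctsa, Ctsd and Ctsl were not called. Of the 4 with an ETS core, Ctss fell, and Ctsa, Ctsc and Ctsk were not called. A match describes the letters of these windows.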

How the data were processed

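RNA-seq of 12 tumours was analysed from 1 table of raw read counts per gene symbol. The authors deposited whole-number counts without normalization. The submitters' processing notes name bcl2fastq 2.20.0.422, cutadapt 1.8.1 and HTSeq 0.6.1, with build mm10. For the aligner, annotation and strand setting, nothing is given in the sources used here. Every count column matched a sample label. The members and gene lists were chosen with earlier results of these data known.

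Genes passing edgeR's filterByExpr by group were scaled with TMM. A robust quasi-likelihood model with a mean for each of the 4 groups was fitted to the 12 libraries (edgeR 4.0.16, R 4.3.3) and tested with two-sided F tests, with Benjamini-Hochberg adjustment over all 15082 tested genes. The model shares its spread across genes, since 3 tumours against 3 cannot give an exact permutation p under 0.1. Standard errors come from the F statistics. The comparison with macrophage markers used limma 3.58.1 on log2(CPM + 1). Levels per kb use the longest coding transcript with support level 1 in GENCODE M21. No pair among the 66 pairs of libraries was a duplicate (lowest chi-square per degree of freedom 38).

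All 10 members are named. Of each other list, up to 4 genes with the smallest p are named, and 2 genes of each member's nearest pattern, predicted genes left out. A gene that this rule gives is not reported here. Of 196 listed symbols 2 were matched by an older name. Alternatives were DESeq2 1.42.0 size factors and its Wald test, no or a stricter filter on low counts, a pseudocount of 0.25, the compared groups alone, the replicate number as a block and leaving out each library. The tests were checked on simulated data, with 100 genes changed by 1 and 100 by 2 on the log2 scale. Of these, edgeR recovered 21% and 82%, with 8 false calls among 14907 genes. DESeq2 recovered 47% and 92%, with 57 false calls. Its 57 false calls stood beside 47 and 92 true ones, a larger part than the 8 of edgeR beside 21 and 82. The simulated data held no outlying library such as IgG replicate 3. The limma comparison with macrophage markers recovered 18% and 81%, with 14 false calls.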

Additional observations from a re-analysis of the deposited data

How the results depend on the processing

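The calls of Ctss, Ctsh and Lgmn for anti-CSF1 averaged over Lupron held with DESeq2's size factors (1.93% of all genes called), the DESeq2 Wald test (9.45%), no filter (1.27%) and a stricter filter on low counts (2.19%). The count of members called relative to macrophage markers stayed within 1.5 times of 8 under every alternative run. It was not clear if the replicate numbers pair the tumours. Deviations of same-numbered tumours in different groups correlated between −0.304 and 0.513, over 0.1 in 8 of 18 pairs. Those of differently numbered tumours correlated between −0.642 and 0.556, over 0.1 in 11 of 36 pairs. Of the 12 libraries, 6 correlated best with their own number. With the replicate block, 1 member in place of 3 was called for anti-CSF1 averaged over Lupron, where 1% of all genes were called. In the same fit Ctsk in Lupron/anti-CSF1 against Lupron stood at 0.018 and Ctsb in Lupron/anti-CSF1 against anti-CSF1 at −0.017. The DESeq2 Wald test called 4 members in anti-CSF1 against IgG (12.2% of all genes called), 3 in Lupron/anti-CSF1 against Lupron (1.56%) and 4 in Lupron/anti-CSF1 against IgG (13.9%), where edgeR called 0 members. A fit to the compared groups alone called 2 in Lupron/anti-CSF1 against Lupron (1.43% of all genes called). Ctsa for Lupron averaged over anti-CSF1, at 0.0060, stood at −0.0081 with DESeq2's size factors and at −0.0079 in its Wald test, and Ctsc for anti-CSF1 averaged over Lupron, at 0.0087, stood at −0.0011 with the stricter filter. The cause was not tested in these cases.

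Leaving out libraries (each in turn, and IgG replicate 3 with Lupron replicate 2, added after seeing the data) gave 0 to 4 called members for anti-CSF1 averaged over Lupron, with 0 without anti-CSF1 replicate 3 (0.419% of all genes called), 3 without IgG replicate 1 (10.1%) or 3 (3.13%), 4 without the pair (2.51%) and 1 in every other such fit (0.535% to 1.57%). The counts were 0 to 3 in anti-CSF1 against IgG, 0 to 1 in Lupron against IgG, 0 to 3 in Lupron/anti-CSF1 against Lupron and 0 to 2 in Lupron/anti-CSF1 against IgG. Without the pair there were 2 in each of anti-CSF1 against IgG, Lupron/anti-CSF1 against Lupron and Lupron/anti-CSF1 against IgG, where 0.93%, 0.93% and 1.31% of genes were called. The largest shares were 16.8%, 4.19% and 14.2% of genes, without IgG replicate 1, in the comparisons of anti-CSF1, Lupron and Lupron/anti-CSF1 with IgG. No called member changed sign in these fits, and the estimates that did were these, as log2 ranges over the fits. For anti-CSF1 averaged over Lupron, Ctsc ran from −0.27 to 0.16 and Ctsa from −0.23 to 0.022. Relative to macrophage markers, Ctss ran from −0.23 to 0.20. For Lupron averaged over anti-CSF1, Ctsk ran from −0.23 to 0.12, Ctsh from −0.0025 to 0.23, Ctsz from −0.053 to 0.29, Ctsa from −0.097 to 0.079 and Lgmn from −0.058 to 0.33. For the interaction, Ctsc ran from −0.57 to 0.11 and Ctsh from −0.47 to 0.035. In anti-CSF1 against IgG, Ctsc ran from −0.24 to 0.45, Ctsz from −0.51 to 0.19 and Ctsa from −0.021 to 0.33. In Lupron against IgG, Ctsh ran from −0.020 to 0.47 and Lgmn from −0.051 to 0.72. In Lupron/anti-CSF1 against Lupron, Ctsk ran from −0.42 to 0.26, Ctsc from −0.29 to 0.028 and Ctsd from −0.064 to 0.080. In Lupron/anti-CSF1 against anti-CSF1, Ctsb ran from −0.13 to 0.15, Ctsl from −0.33 to 0.21, Ctss from −0.32 to 0.33, Ctsh from −0.17 to 0.17, Ctsz from −0.30 to 0.0019 and Lgmn from −0.18 to 0.034. In Lupron/anti-CSF1 against IgG, Ctsc ran from −0.064 to 0.63, Ctsz from −0.64 to 0.064 and Ctsa from −0.26 to 0.094.

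The depth, at least 20584363 counts per library, gave Ctsk 32 to 174 counts, the fewest of the 10 members. The 3 tumours per group and the spread among the IgG tumours limit the comparisons of 2 groups.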
